A study of Homo sapiens with 15 samples.

Results

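The genes described here are 41 genes of the cell cycle and of DNA replication, among the 18377 genes that the array names through a cluster of probes with 1 gene symbol. They were chosen by name, as genes whose products drive or mark passage through the cycle. Of the 28926 clusters on the array 19310 carry 1 symbol, and each gene has exactly 1 of these. Clusters with several symbols were not searched. The genes were divided by the phase in which they act into 24 genes of G1 and S phase (G1/S) and 17 genes of G2 phase and mitosis (G2/M). Transcript levels came from Affymetrix Human Gene 1.0 ST arrays hybridised with RNA of the CD4+ T-cell line MT-2, which carries human T-cell lymphotropic virus type 1 (HTLV-1), taken after 48 hours of culture. The tested conditions were ascorbic acid (AA, vitamin C) at a low (10 µg/ml), an intermediate (50 µg/ml) and a high dose (100 µg/ml), and interferon-α (IFN-α) at 1000 IU/ml, and the control was untreated MT-2 cells. Each of 3 experiments held 1 array of each of the 5 conditions, which gives 15 arrays. All samples are the same cell line, and the tags of experiments 2 and 3 share a date, so that p-values measure the spread between these 3 experiments, which may be partly technical.

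A cell enters the cycle when D-type cyclins with CDK4 and CDK6, and then cyclin E with CDK2, inactivate the retinoblastoma protein and free the E2F factors, which switch on the genes of DNA synthesis. Replication origins are licensed by CDC6 and CDT1, which load the MCM helicase, and geminin prevents a repeat of this step. Mitosis is started by cyclin B with CDK1, guided by the Polo-like and Aurora kinases and closed by CDC20 with the anaphase-promoting complex. T cells transformed by HTLV-1 cycle continuously, and the study asked which transcripts differ after either agent, so that the question for these genes is whether the transcripts of the cycle did.

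Promoters of genes of the cycle are known for a few short sequence elements. As examples 5 windows are shown, each of a gene that is named below and has 1 window. The promoter windows of RefSeq (build GRCh38.p14) run over 300 bases, 250 before and 50 after a gene's start, and 33 of the 41 genes matched. Motifs were searched on both strands, and a gene counted when any of its windows held the motif. A match is a description of the letters and not a site of binding. The E2F motif (TTTCGCGC or TTTGGCGC) was in 9 of 19 G1/S genes (47.4%) and in 1 of 14 G2/M genes (7.14%), against 382 of 27305 genes in the table (1.4%). The CHR motif (TTTGAA or TTCGAA), an element named after the cell cycle genes homology region, was in 10 of 14 G2/M genes (71.4%) and in 2 of 19 G1/S genes (10.5%), against 19.5% in the table. The NF-Y motif (CCAAT) was in 13 of 14 G2/M genes (92.9%) and in 11 of 19 G1/S genes (57.9%), against 39.7% in the table. In the windows below, read 5′ to 3′ on the gene's strand, capitals mark every match to one of these motifs on either strand.
CCNA2, chr4:121823834-121824133, minus strand: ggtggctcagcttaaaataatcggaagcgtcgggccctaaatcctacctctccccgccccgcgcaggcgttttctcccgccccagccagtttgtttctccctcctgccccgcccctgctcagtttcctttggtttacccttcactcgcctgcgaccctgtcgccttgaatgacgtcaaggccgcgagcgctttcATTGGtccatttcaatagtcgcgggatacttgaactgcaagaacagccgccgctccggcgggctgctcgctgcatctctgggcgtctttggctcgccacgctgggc
KIF20A, chr5:138178862-138179161, plus strand: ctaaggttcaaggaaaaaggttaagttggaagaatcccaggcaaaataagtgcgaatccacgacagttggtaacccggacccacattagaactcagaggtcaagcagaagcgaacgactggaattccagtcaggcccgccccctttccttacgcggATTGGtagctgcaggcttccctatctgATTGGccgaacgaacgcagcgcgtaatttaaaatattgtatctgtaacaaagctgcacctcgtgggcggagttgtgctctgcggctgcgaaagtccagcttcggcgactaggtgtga
BUB1, chr2:110678014-110678313, minus strand: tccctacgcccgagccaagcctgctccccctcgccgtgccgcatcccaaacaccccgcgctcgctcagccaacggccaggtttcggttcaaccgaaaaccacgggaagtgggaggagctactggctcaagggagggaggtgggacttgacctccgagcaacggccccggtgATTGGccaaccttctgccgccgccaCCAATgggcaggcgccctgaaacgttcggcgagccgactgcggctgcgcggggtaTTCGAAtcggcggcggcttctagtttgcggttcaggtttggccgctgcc
CDC6, chr17:40287629-40287928, plus strand: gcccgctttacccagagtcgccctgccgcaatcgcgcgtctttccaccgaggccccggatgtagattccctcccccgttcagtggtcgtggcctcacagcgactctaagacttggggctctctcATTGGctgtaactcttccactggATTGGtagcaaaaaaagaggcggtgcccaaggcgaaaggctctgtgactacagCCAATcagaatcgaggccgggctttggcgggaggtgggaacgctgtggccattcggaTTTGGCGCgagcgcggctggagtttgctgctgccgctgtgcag
SKP2, chr5:36151861-36152160, plus strand: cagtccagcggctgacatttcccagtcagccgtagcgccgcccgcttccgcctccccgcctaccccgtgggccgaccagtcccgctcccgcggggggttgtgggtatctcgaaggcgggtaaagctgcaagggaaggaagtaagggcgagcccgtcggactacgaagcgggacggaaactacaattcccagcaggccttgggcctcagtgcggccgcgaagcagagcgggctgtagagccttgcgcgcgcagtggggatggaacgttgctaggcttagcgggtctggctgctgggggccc
CCNA2 (cyclin A2) has 1 match, to the NF-Y motif. KIF20A, a mitotic kinesin, has 2 matches to the NF-Y motif, and BUB1, a spindle checkpoint kinase, has 2 to the NF-Y motif and 1 to the CHR motif. CDC6, the licensing factor, has 1 match to the E2F motif and 3 to the NF-Y motif. SKP2, the F-box protein that marks the CDK inhibitor p27 for destruction, has none, which says only that these letters are not in this window.

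The transcripts of the cycle were well measured in MT-2 cells. On every one of the 15 arrays 40 of the 41 genes lay above the array's median, and 33 lay above its upper quartile. The exception was E2F2, which lay below the median on all arrays, between 6.14 and 6.62 on the log2 scale. The spread left after the condition means had a median of 0.118 over these genes, against 0.141 over all clusters (log2 SD). Of the T-cell markers, CD4, IL2RA and CCR4 lay above the upper quartile on all arrays, whereas 7 of 12, among them CD3D, CD3E, CD3G and PTPRC, lay below the median. No marker of CD8 T and NK cells, B cells or myeloid cells lay above the upper quartile on all arrays. One array stood apart, that of high-dose AA in experiment 3. Its values were compressed, with an SD over clusters of 2.02 against 2.12 to 2.18 on the other arrays, an upper quartile of 8.20 against 8.33 to 8.45, and a mean correlation with the other arrays of 0.976 against 0.991 to 0.995. Since most genes of the cycle lie in the upper part of the range, the counts and leading genes of the high dose are given with and without this array.

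High-dose AA left the transcripts of the cycle close to those of untreated cells after 48 hours. None of the 41 genes was called at the study's threshold (limma, unadjusted p under 0.001), at which 0.259% of all clusters were called, and none with replicate as a block, where 0.667% were. The smallest adjusted p among the genes was 0.422. The limits on a change were narrow, because the 95% intervals of all 41 genes lay within 0.5 of zero on the log2 scale (1.41-fold) in either direction, as did those of 75.6% of all clusters. The G1/S genes split evenly, with 13 of 24 higher in high-dose AA and a median difference of 0.00, whereas 15 of 17 G2/M genes were higher, with a median of 0.12. Over all clusters 54.4% were higher, with a median of 0.02, and over the brightest 25% of clusters 38.4% were, with a median of −0.04. At an unadjusted p under 0.05 the genes SKP2, CCNE1, CCNA2, TPX2 and KIF20A were higher and none was lower, 5 and 0 of 41, against 7.34% and 3.62% of all clusters. With replicate as a block 6 were higher and 1 lower, against 9.66% and 6.5% of all clusters, since FOXM1 (higher) and CDK6 (lower) then passed this threshold as well. In 8 genes all 3 high-dose arrays lay above all 3 untreated arrays and in none below, against 6.86% and 3.66% of all clusters. These 8 were CCNE1, MCM4 and SKP2 of G1/S and CCNA2, BUB1, TPX2, KIF20A and FOXM1 of G2/M. RNA was taken from whole cultures, so that a change in the number of cells in a phase and a change in RNA per cell cannot be told apart.

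**Figure D1:**
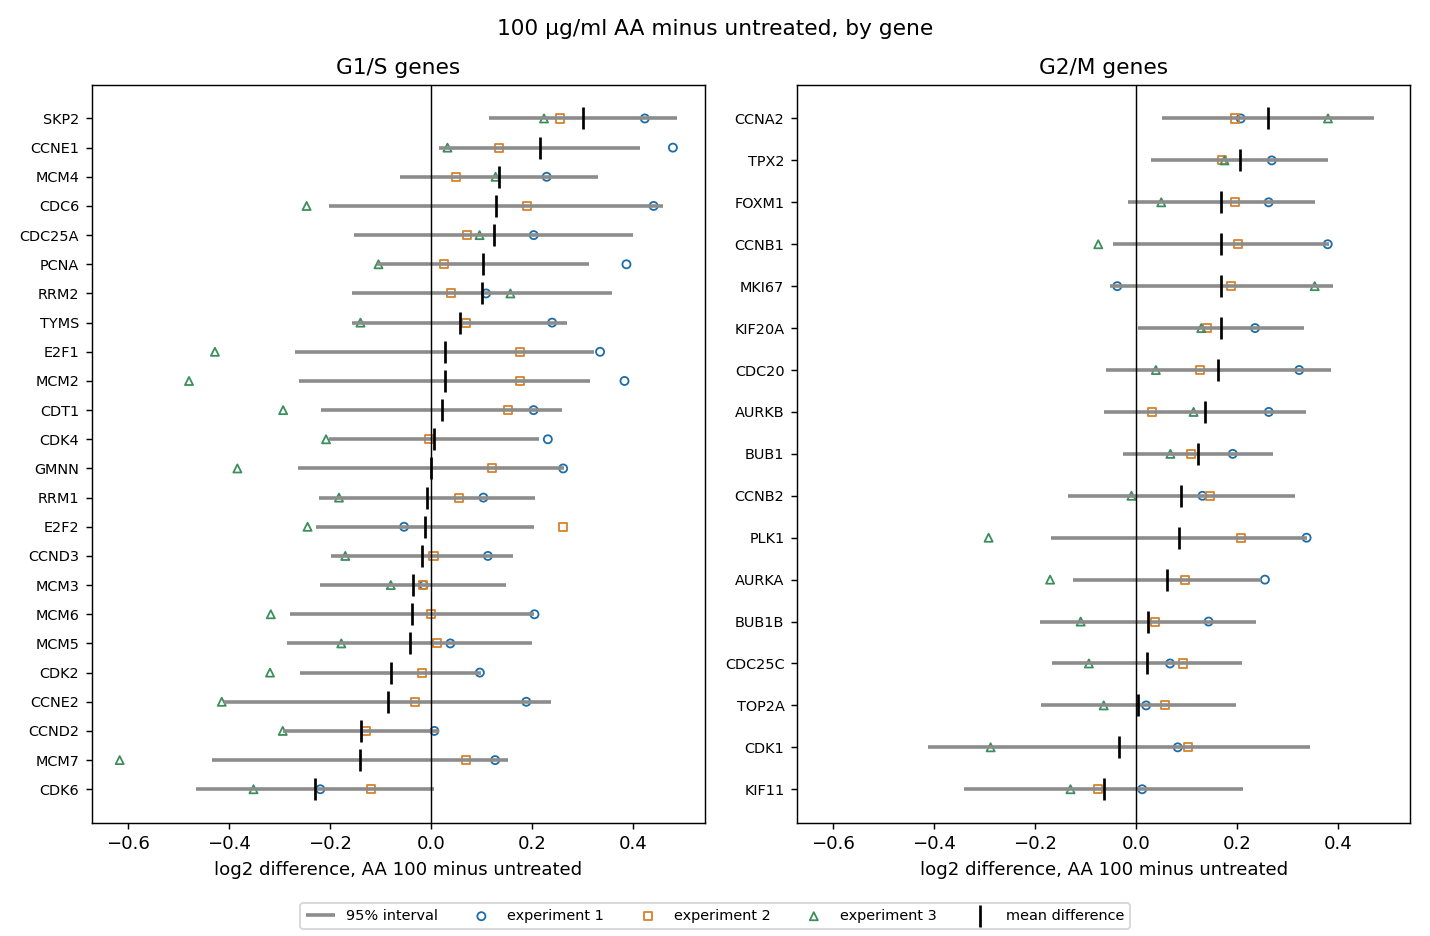
Log2 difference between high-dose AA and untreated cells for the 24 G1/S genes and the 17 G2/M genes (x axis), sorted by size, with the mean of 3 experiments as a black bar, its 95% interval from limma as a grey line and each experiment as an open symbol. The means lie between −0.23 (CDK6) and 0.30 (SKP2), and 15 of the 17 G2/M means lie right of zero.

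SKP2 had the largest mean difference of the 41 genes at the high dose. It was at 10.41, 10.31 and 10.40 on the high-dose arrays of experiments 1, 2 and 3, against 9.99, 10.06 and 10.18 on the untreated arrays. The lowest high-dose array was above the highest untreated array, and the mean difference was 0.30 ± 0.09 (SE, n = 3 each; 1.23-fold, 95% interval 0.11 to 0.49, limma adjusted p = 0.422). Untreated cells averaged 10.07 ± 0.10, and the mean was 10.11 ± 0.11 at the low dose, 10.11 ± 0.05 at the intermediate dose and 10.37 ± 0.05 with 100 µg/ml (SD over 3 arrays). The values at the low and the intermediate dose overlapped those of untreated cells.

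The cyclins and kinases of G1 differed in direction. CCNE1, the cyclin E that activates CDK2, was at 8.25, 8.20 and 8.09 in high-dose AA, against 7.77, 8.07 and 8.05 in untreated cells. Its difference of 0.22 (1.16-fold, 95% interval 0.02 to 0.41, limma adjusted p = 0.444) was carried mostly by experiment 1, where it was 0.48, against 0.13 and 0.03 in experiments 2 and 3. CDK6, which pairs with D-type cyclins, was at 10.90, 10.71 and 10.54 in high-dose AA, against 11.12, 10.82 and 10.89 in untreated cells. It was lower in each experiment, by 0.23 on average (95% interval −0.47 to 0.01, limma adjusted p = 0.464), and the ranges overlapped. CCND2, a D-type cyclin, differed by −0.14 (limma adjusted p = 0.483), and CCND3, CCNE2, CDK2 and CDK4 lay between −0.09 and 0.01. Of the remaining regulators, CDC25A, the phosphatase that activates CDK2, differed by 0.12, E2F1 by 0.03 and E2F2 by −0.01. With the high-dose array of experiment 3 left out, these were 0.07, 0.21 and 0.09. CCND3, CCNE2, CDK2 and CDK4 then lay between 0.00 and 0.11, CCND2 at −0.08 and CDK6 at −0.14.

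The licensing and helicase genes were uneven over the 3 experiments. MCM7, a subunit of the helicase, was at 11.35, 11.23 and 10.61 in high-dose AA, against 11.23, 11.16 and 11.23 in untreated cells, and MCM2 was at 10.39, 10.28 and 9.72, against 10.01, 10.11 and 10.20. In both genes experiments 1 and 2 were higher in high-dose AA and experiment 3, with the array that stood apart, was lower, so that the mean differences were −0.14 and 0.03. MCM4 was at 10.75, 10.73 and 10.78, against 10.52, 10.68 and 10.65, a difference of 0.14 (95% interval −0.06 to 0.33) with no overlap. MCM3, MCM5 and MCM6 each differed by −0.04, GMNN (geminin) by 0.00, CDT1 by 0.02 and CDC6 by 0.13. With the array that stood apart left out, MCM3, MCM5 and MCM6 differed by 0.01, 0.09 and 0.11. GMNN then differed by 0.16, CDT1 by 0.12 and CDC6 by 0.18.

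Among the genes of DNA synthesis, PCNA, the sliding clamp of the replicative polymerases and a marker of S phase, was at 10.82, 10.53 and 10.47 in high-dose AA, against 10.43, 10.50 and 10.57 in untreated cells. Its mean difference of 0.10 (95% interval −0.11 to 0.31, limma adjusted p = 0.681) came from experiment 1, and experiment 3 went the other way. RRM1 and RRM2, the subunits of ribonucleotide reductase, differed by −0.01 and 0.10, and TYMS (thymidylate synthase) by 0.06. In the same order these were 0.07, 0.08 and 0.13 without the array that stood apart.

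With all arrays CCNA2 had the largest difference of the G2/M genes, while without the array that stood apart CCNB1 (0.28) and PLK1 (0.24) were above it (0.20). CCNA2 codes for cyclin A2, which acts with CDK2 in S phase and with CDK1 in G2, and was at 10.90, 10.77 and 11.03 in high-dose AA, against 10.69, 10.58 and 10.65 in untreated cells. The groups did not overlap, and the difference was 0.26 (1.2-fold, 95% interval 0.05 to 0.47, limma adjusted p = 0.439). Untreated cells averaged 10.64 ± 0.06, and the mean was 10.67 ± 0.14 at the low dose, 10.78 ± 0.15 at the intermediate dose and 10.90 ± 0.13 with 100 µg/ml (SD over 3 arrays), so that the means were ordered by dose while neighbouring doses overlapped. Of the partners of mitotic entry, over all arrays, CCNB1 differed by 0.17, CCNB2 by 0.09 and CDK1 by −0.03. CDC25C, the phosphatase that activates CDK1, differed by 0.02 and CDC20 by 0.16.

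Of the genes of the spindle, some had separate values and some did not. TPX2, which activates Aurora A and nucleates spindle microtubules, was at 10.34, 10.34 and 10.42 in high-dose AA, against 10.07, 10.16 and 10.25 in untreated cells. The difference was 0.20 (1.15-fold, 95% interval 0.03 to 0.38, limma adjusted p = 0.441) without overlap. KIF20A, which acts in cytokinesis, was at 10.71, 10.68 and 10.68, against 10.47, 10.54 and 10.55, a difference of 0.17 (limma adjusted p = 0.451). KIF11, the motor that separates the spindle poles, differed by −0.06, and TOP2A, the topoisomerase that untangles sister chromatids, by 0.00. Of the kinases, AURKA differed by 0.06, AURKB by 0.14 and PLK1 by 0.08, and of the checkpoint genes BUB1 by 0.12 and BUB1B by 0.02. In the same order these were 0.12, 0.11, 0.24, 0.14 and 0.11 without the array that stood apart. FOXM1, the transcription factor of the G2/M genes, was at 9.53, 9.62 and 9.58, against 9.26, 9.43 and 9.53, a difference of 0.17 (limma adjusted p = 0.479).

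MKI67, which codes for the proliferation marker Ki-67, was at 11.30, 11.23 and 11.57 in high-dose AA, against 11.34, 11.04 and 11.22 in untreated cells. The groups overlapped, and the difference was 0.17 (95% interval −0.05 to 0.39, limma adjusted p = 0.532). The intervals of both common proliferation markers, MKI67 and PCNA, included zero.

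**Figure D2:**
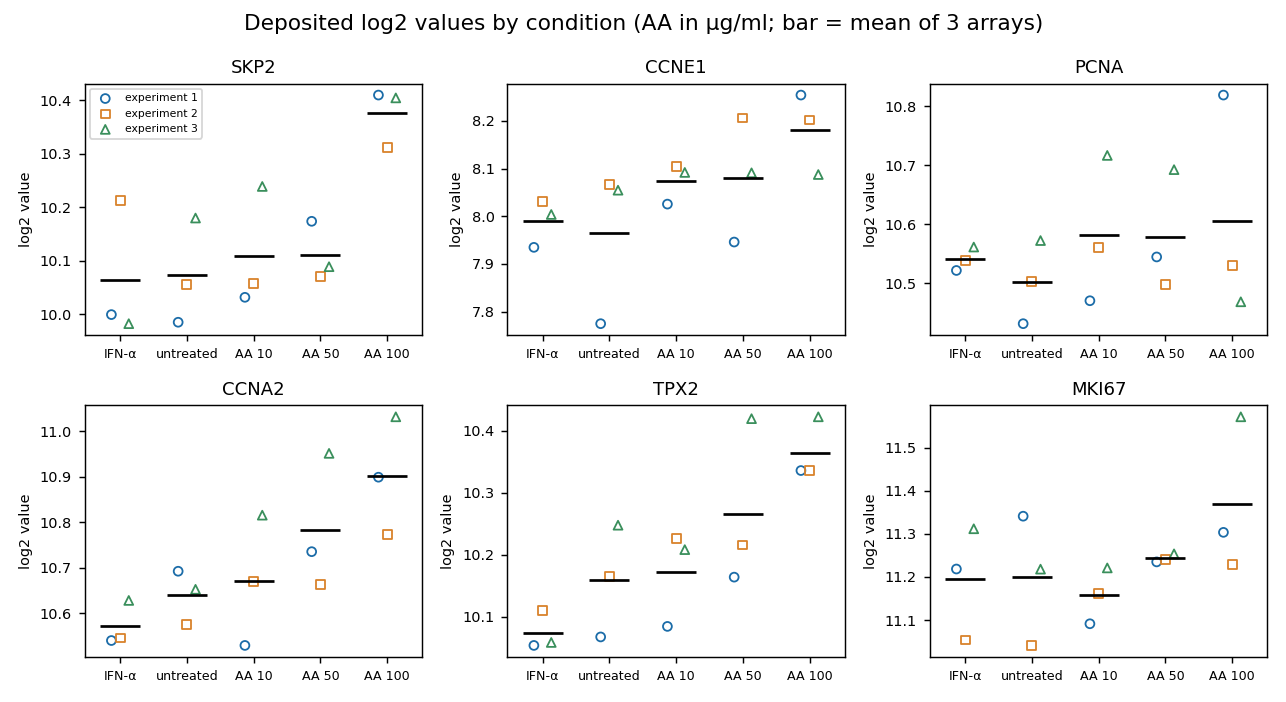
Deposited log2 values of 6 genes (y axis, 1 panel per gene, scales differ) in IFN-α, untreated cells and 10, 50 and 100 µg/ml AA (x axis), with 1 symbol per experiment and a bar for the mean of 3 arrays. In SKP2, CCNA2, TPX2 and CCNE1 the 3 high-dose arrays lie above the 3 untreated arrays, and in PCNA and MKI67 they overlap.

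The high-dose values depended on the experiment. In experiments 1, 2 and 3 the array of high-dose AA was higher than the untreated array for 37, 33 and 13 of the 41 genes. The median difference of the G1/S genes was 0.20, 0.05 and −0.23, and that of the G2/M genes was 0.21, 0.13 and −0.01. The brightest 25% of clusters had medians of 0.08, −0.01 and −0.19 in the same order, so that bright clusters in general were lower on the array that stood apart, and the medians of both groups of genes had the same order over the experiments. In every experiment the G2/M median was above that of the brightest clusters. Of the 41 genes 12 were higher in all 3 experiments, namely SKP2, CCNE1, MCM4, CDC25A and RRM2 of G1/S and CCNA2, TPX2, KIF20A, FOXM1, CDC20, AURKB and BUB1 of G2/M. In all 3 experiments 2 genes were lower, CDK6 and MCM3. Over all clusters 15.0% were higher and 11.4% lower in all 3, and over the brightest 25% of clusters 12.7% and 16.4%, against 29.3% and 4.9% of the 41 genes.

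Without the array that stood apart, 38 of the 41 genes were higher in high-dose AA, 22 of 24 in G1/S and 16 of 17 in G2/M, with medians of 0.11 and 0.14, against 54.2% of all clusters and 57.9% of the brightest 25%. The genes at p under 0.05 were then CCNE1, MCM2, SKP2, CCNB1 and PLK1, 5 of 41 higher and none lower, against 3.21% and 1.71% of all clusters. None was called at p under 0.001. In 14 genes both remaining high-dose arrays lay above all untreated arrays and in none below, against 10.5% and 5.96% of all clusters. The intervals of 40 of the 41 genes lay within 0.5 of zero, against 87.7% of all clusters, and that of CDC6 reached 0.54. SKP2 and CCNE1 were thus past the looser threshold with and without this array, with differences of 0.29 and 0.26 without it. When other arrays or whole experiments were left out as well, SKP2 ran from 0.24 to 0.35 and CCNE1 from 0.08 to 0.31. CCNA2, TPX2 and KIF20A were past it only with the array, and their differences without it were 0.20, 0.18 and 0.17 (limma adjusted p = 0.987, 0.987 and 0.986). MKI67 differed by 0.07 and PCNA by 0.17 without it.

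**Figure D3:**
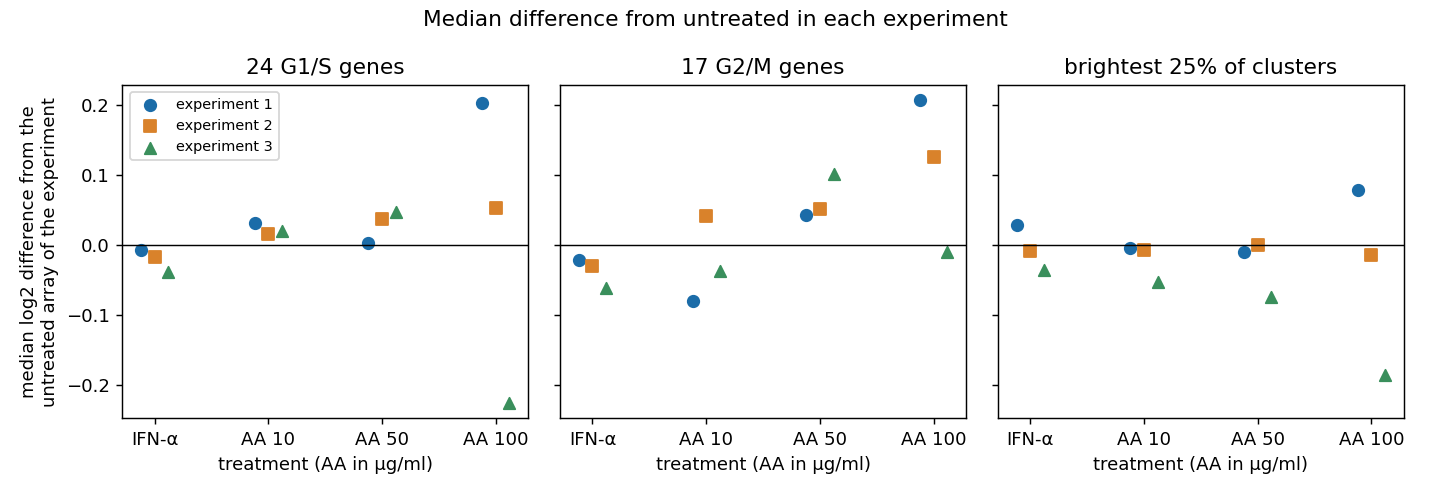
Median log2 difference from untreated cells, taken within each experiment (y axis), under IFN-α and 10, 50 and 100 µg/ml AA (x axis), for the G1/S genes, the G2/M genes and the brightest 25% of all clusters, with 1 symbol per experiment. At the high dose the G1/S medians spread from −0.23 to 0.20 and the G2/M medians from −0.01 to 0.21, and the brightest clusters follow the same order of experiments.

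Differences at the lower doses passed no threshold, but they were not all smaller than at the high dose. The G1/S median was 0.02 at the low and 0.04 at the intermediate dose, against 0.00 at the high dose with all arrays. No gene was called at p under 0.001 at the low or the intermediate dose, where 0.0207% and 0.0311% of all clusters were, and none reached p under 0.05, where 2.54% and 2.34% did. All 41 intervals lay within 0.5 of zero at both doses, against 85.2% of all clusters at each, and no gene had a limma adjusted p under 0.999. At 10 µg/ml 13 of 24 G1/S genes and 7 of 17 G2/M genes were higher than in untreated cells (medians 0.02 and −0.02), against 52.3% of all clusters. BUB1B, a spindle checkpoint protein, was at 9.71, 9.67 and 9.51 in low-dose AA, against 9.84, 9.69 and 9.72 in untreated cells, a difference of −0.12. TOP2A was at 10.78, 10.82 and 10.90, against 11.03, 10.84 and 10.94 (−0.10). In both genes the arrays overlapped, and CCNE1 and CCND3 differed by 0.11 and 0.09. At 50 µg/ml 17 of 24 G1/S genes (median 0.04) and 14 of 17 G2/M genes (median 0.05) were higher than in untreated cells, against 52.6% of all clusters and 37.2% of the brightest. CCNB1, the cyclin of mitotic entry, was at 9.06, 9.16 and 9.15 in intermediate-dose AA, against 8.95, 8.98 and 9.0 in untreated cells, a difference of 0.15 without overlap. PLK1 lay above untreated cells without overlap as well, at 11.04 to 11.17 against 10.80 to 11.03, and no gene lay below. The share of all clusters without overlap was not counted at this dose. CCNA2, CCNE1 and CDK6 differed by 0.14, 0.12 and −0.16. MKI67 differed by −0.04 at the low and 0.04 at the intermediate dose, and PCNA by 0.08 at each.

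A slope on dose was fitted to the 12 arrays without IFN-α. No gene was called at p under 0.001, where 0.245% of all clusters were. At p under 0.05, 8 genes had a positive slope and none a negative one, against 8.08% and 3.38% of all clusters. Of these 8, 7 were G2/M genes, CCNA2, TPX2, BUB1, KIF20A, FOXM1, MKI67 and CCNB1, and 1 was a G1/S gene, SKP2. The slope per 100 µg/ml was 0.28 for SKP2 (95% interval 0.12 to 0.44, limma adjusted p = 0.412), 0.26 for CCNA2 (0.08 to 0.45) and 0.21 for TPX2 (0.05 to 0.36). With replicate as a block 8 genes had a positive slope and 1, CDK6, a negative one at this threshold, against 10.3% and 5.64% of all clusters. Without the array that stood apart 10 had a positive and none a negative slope, against 3.31% and 1.62%. These 10 were CCNE1, MCM2, E2F1 and SKP2 of G1/S and CCNA2, CCNB1, PLK1, BUB1, TPX2 and KIF20A of G2/M. MKI67 and FOXM1 were then no longer past the threshold, so that the split between G1/S and G2/M genes depended on this array. The slope shares its untreated and high-dose arrays with the comparison above.

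IFN-α limits the growth of many cell types, and in MT-2 cells no gene of the cycle differed past a threshold after IFN-α. None was called at p under 0.001, where 0.28% of all clusters were, none reached p under 0.05, where 1.39% did, and all 41 intervals lay within 0.5 of zero, against 88.6% of all clusters. No adjusted p of limma was under 0.999 for these genes. Of the G2/M genes 2 of 17 and of the G1/S genes 9 of 24 were higher in IFN-α than in untreated cells (medians −0.05 and −0.01), against 45.7% of all clusters. In all 3 experiments 12 of the 41 genes were lower and 1 was higher (29.3% and 2.4%), against 11.7% and 9.5% of all clusters. Of the 12, 7 were G2/M genes. KIF20A was at 10.45, 10.40 and 10.30 in IFN-α, against 10.47, 10.54 and 10.55 in untreated cells, a difference of −0.14 without overlap (95% interval −0.30 to 0.02). BUB1B was at 9.73, 9.55 and 9.52, against 9.84, 9.69 and 9.72, a difference of −0.15. Of the G1/S genes CDK2, the kinase of cyclin E, differed by −0.10 and CDT1 by 0.10. E2F2 also lay below untreated cells without overlap, at 6.22 to 6.32 against 6.34 to 6.39. The share of all clusters without overlap was not counted for IFN-α. MKI67 differed by −0.01 (95% interval −0.23 to 0.22) and PCNA by 0.04 (−0.17 to 0.25).

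High-dose AA was also set against IFN-α. Again no gene was called at p under 0.001, where 0.65% of all clusters were. At p under 0.05, 5 genes were higher in high-dose AA (SKP2, CCNA2, TPX2, KIF20A and FOXM1) and 1 was lower (CDK6), against 7.95% and 4.15% of all clusters. With replicate as a block 8 were higher and 1 lower, against 10.5% and 7.08%. KIF20A was at 10.71, 10.68 and 10.68 in high-dose AA, against 10.45, 10.40 and 10.30 in IFN-α, and was higher by 0.31 (95% interval 0.14 to 0.47, limma adjusted p = 0.166). CCNA2 was at 10.90, 10.77 and 11.03, against 10.54, 10.55 and 10.63, and was higher by 0.33, with an interval of 0.12 to 0.54 that was the only one of the 41 to pass 0.5. TPX2 and SKP2 were higher by 0.29 and 0.31 (limma adjusted p = 0.254 and 0.253). In 8 genes the high-dose arrays lay above all IFN-α arrays and in 1, CCND2, below, against 7.46% and 3.74% of all clusters. Of the G2/M genes 16 of 17 were higher (median 0.14) and of the G1/S genes 16 of 24 (median 0.04), against 56.8% of all clusters. Without the array that stood apart, 11 genes were higher at p under 0.05, 7 of them G2/M genes, and none was lower, against 4.16% and 2.32% of all clusters. In 17 genes the remaining high-dose arrays then lay above all IFN-α arrays and in 1 below, against 11.8% and 5.8%, and KIF20A differed by 0.31, SKP2 by 0.30, CCNA2 by 0.26 and TPX2 by 0.26.

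Weights for the quality of each array raised the number of calls. With them 2 genes were called against untreated cells, E2F2 and PLK1, and 7 against IFN-α, E2F2, SKP2, CDC20, PLK1, TPX2, KIF20A and FOXM1, all higher in high-dose AA, while 7.22% and 7.43% of all clusters were called. These weights gave 18.7 to the high-dose array of experiment 2, against 0.237 and 0.106 to those of experiments 1 and 3, so that the high-dose mean was then close to the value of 1 array, and their estimation stopped before it converged.

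**Figure D4:**
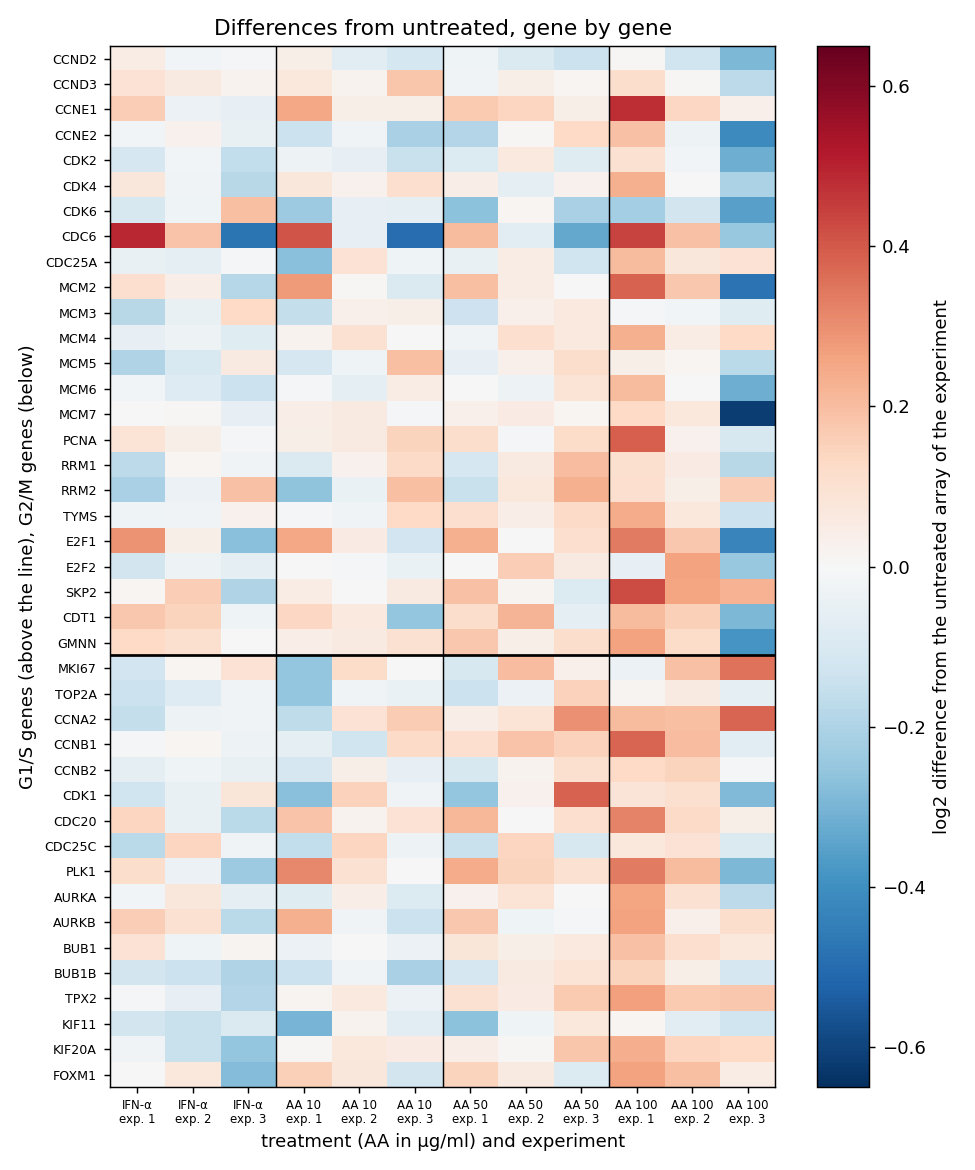
Log2 difference of each of the 41 genes (rows) from the untreated array of the same experiment, under IFN-α and 10, 50 and 100 µg/ml AA in experiments 1 to 3 (columns), with red for higher and blue for lower than untreated. Differences run from −0.62 to 0.49, and the column of high-dose AA in experiment 3 is mostly blue among the G1/S genes while those of experiments 1 and 2 are mostly red.

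The genes were also compared between experiments. Between experiments 2 and 3 and experiment 1, with condition in the model, no gene was called at p under 0.001, where 3.56% of all clusters were. At p under 0.05, 3 genes were higher in experiments 2 and 3 (CDC25A, MCM4 and CDC20) and 6 were lower (CCNE2, CDK6, MCM5, CDT1, CCNB2 and BUB1B), against 8.83% and 12.8% of all clusters. CDC25A differed by 0.22 (95% interval 0.09 to 0.35, limma adjusted p = 0.0498) and CCNB2 by −0.18 (limma adjusted p = 0.0523). An adjusted p of limma under 0.05 was reached by 1 of the 41 genes, CDC25A, and by 1574 of the 28926 clusters. Between experiment 3 and experiment 2 none was called, where 0.377% of all clusters were, and 5 genes were higher at p under 0.05 (RRM2, MKI67, CCNA2, CDK1 and KIF11) and 1 was lower (PLK1), against 6.49% and 7.38%. KIF11 differed by 0.24 and CDK1, the kinase of mitotic entry, by 0.25. For comparison, the largest differences of high-dose AA from untreated cells were 0.30 for SKP2 and 0.26 for CCNA2.

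Other genes of the cycle were counted from lists. Of 50 further mitosis genes 42 were higher in high-dose AA than in untreated cells (median 0.07), 2 of them at p under 0.05, and of 45 further replication genes 29 were higher (median 0.03), 6 of them at p under 0.05, with none lower at that threshold in either list. Over all clusters 54.4% were higher, and 7.34% were higher at p under 0.05. Without the array that stood apart 44 of 50 and 39 of 45 were higher, against 54.2% of all clusters, 4 in each list at p under 0.05, against 3.21%. None was called at p under 0.001 with or without it. NEK2, a kinase that separates the centrosomes, was at 8.97, 8.52 and 8.90 in high-dose AA, against 8.55, 8.40 and 8.37 in untreated cells (difference 0.35, limma adjusted p = 0.422). E2F8, a repressor of the E2F family, was at 9.59, 9.44 and 9.43, against 9.15, 9.23 and 9.26 (0.27, limma adjusted p = 0.422). Under IFN-α 8 of the 50 mitosis genes were higher than in untreated cells, with a median of −0.05, against 45.7% of all clusters.

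Genes that act as brakes of the cycle were counted in the same way. Of 9 CDK inhibitors and pocket proteins 4 were higher and 5 lower, of 7 antiproliferative BTG/TOB and quiescence genes 3 were higher, and with all arrays and no block no member of either list reached p under 0.05 against untreated cells at any dose. Without the array that stood apart 1 of the 9, CDKN2A, was higher at that threshold (0.27, limma adjusted p = 0.986), against 3.21% of all clusters. CDKN1B (p27), the inhibitor that SKP2 targets, was at 9.80, 9.34 and 8.64 in high-dose AA, against 9.77, 9.44 and 9.61 in untreated cells. Its difference was −0.35 (limma adjusted p = 0.584) with the array of experiment 3 and −0.04 without it. Of 6 checkpoint and G2 brake genes only WEE1, whose kinase holds CDK1 inactive, was past an unadjusted p under 0.05 against untreated cells, and only at the lower doses (no adjusted p of limma under 0.999). Its brightest cluster was at 9.42, 9.71 and 9.03 at the low dose, against 9.70, 9.96 and 9.93 in untreated cells (difference −0.48), and at 9.30, 9.60 and 9.36 at the intermediate dose (−0.44). Of its other 2 clusters, 1 differed by −0.51 and 1 by −0.05 at the low dose, and the high-dose difference of the brightest was −0.31.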

How the data were processed

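MT-2 cells were profiled on 15 Affymetrix Human Gene ST 1.0 arrays, 1 per condition and experiment. The log2 values were made by the authors with RMA (xps 1.8.0: background correction, quantile normalization and summarization of the probes of a cluster) and are used here as deposited, with no further normalization. The array annotation used names no genome build, and 19310 clusters carry 1 symbol, 1752 several and 7864 none. Values at a cluster depend on its probes, so that levels of different genes are not compared.

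Differences come from limma 3.58.1 in R 4.3.3, in 1 model of condition over all 15 arrays (10 residual and 3.91 prior degrees of freedom), two-sided, with Benjamini-Hochberg adjustment over 28926 clusters. The threshold is that of the study's methods, unadjusted p under 0.001, and p under 0.05 is given beside it. Experiments were compared in a model of condition and experiment. Steps were tested on simulated data with independent noise on each array. The simulation held no deviation shared within an experiment and no compressed array, so it does not cover either. The deposited values were also checked for shared deviations. After the condition means were subtracted, arrays with the same experiment number deviated together (median correlation 0.281 over 30 pairs), except untreated replicate 3 (−0.194 to 0.0204). The 60 other pairs had a median of −0.17, but deviations from a condition mean sum to zero, so that this negative value is no separate support. The experiment number follows from the sample titles.

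The genes, lists, tests and rules were chosen with earlier results of these data known. Values on every array are given for PCNA, MKI67, the 2 G1/S and 2 G2/M genes of smallest p in the comparisons with untreated cells, and further genes picked after their values were seen, and up to 3 genes of smallest p stand for each other list. For a gene with several clusters the brightest stands for it. BTG2, CDKN2C and CENPA of the lists are not analysed here. Alternatives were a replicate block, fixed or random, models of the compared groups alone, no clusters from the dimmest 25%, a trended and robust variance, array weights (statmod 1.5.0 for the random block), cyclic loess, other thresholds, and fits without single arrays or experiments. Precision is limited by the number of arrays. Plots were made in matplotlib 3.10.9 under Python 3.11.15.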

Additional observations from a re-analysis of the deposited data

Results flagged for a closer look

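In 5 of the 41 genes all 3 AA doses lay on one side of the untreated array in 1 experiment and on the other side in another. The share of all clusters with this pattern was not counted, so that the number is not a result about these genes. The 3 differences of an experiment share its 1 untreated array, and the difference between experiments was not tested. CDC6 was above untreated by 0.41, 0.21 and 0.44 at the low, intermediate and high dose in experiment 1 and differed by −0.49, −0.33 and −0.25 in experiment 3, a gap of −0.71 between the experiment means, with untreated arrays at 9.54 and 9.99. CDT1 was lower at every dose in experiment 3 and higher in experiments 1 and 2, with gaps of −0.35 to each (−0.350 against experiment 1 and −0.346 against experiment 2). MKI67 was lower at every dose in experiment 1 and higher in the others, with gaps of 0.30 for experiment 2 and 0.26 for experiment 3. CDC25C and AURKA were higher at every dose in experiment 2 and lower in experiment 3, with gaps of −0.20 and −0.16. For AURKA the difference of experiment 3 at the intermediate dose was near zero (−0.00), as was that of MKI67 in experiment 3 at the low dose (0.00).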

How the results depend on the processing

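No gene was called at p under 0.001 in any comparison as reported, and the fixed replicate block (paired by experiment) changed no call, with 0 genes in each of the 6 comparisons it was run on. High-dose AA against IFN-α gave 1 gene, KIF20A, with a random replicate block, with a trended and robust variance and with cyclic loess (1.03%, 0.657% and 0.761% of all clusters), 7 with array weights (7.43%), 6 at p under 0.05, and 0 to 1 when arrays were left out (SKP2 without IFN-α replicate 2, where 0.57% of all clusters were called). High-dose AA against untreated cells gave 2 genes with array weights (7.22%) and 5 at p under 0.05. Experiments 2 and 3 against experiment 1 gave 3 with array weights (6.58%) and 2 with cyclic loess (4.18%). At an adjusted p under 0.05 this comparison gave 1, against 1574 of all 28926 clusters. Experiment 3 against 2 gave 1 with array weights (1.46%) and 1 with cyclic loess (0.477%). Without high-dose replicate 3, an alternative chosen after seeing the data, 14 genes in place of 8 lay above all untreated arrays and 17 in place of 8 above all IFN-α arrays. The cause of these differences was not tested.

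The G1/S median at the low dose was 0.0092 with array weights and 0.0443 with cyclic loess, and that at the intermediate dose was 0.0598 with cyclic loess. With arrays left out, the G1/S median at the high dose ran from −0.0768 to 0.109 against untreated cells and from −0.0592 to 0.124 against IFN-α, both lowest without high-dose replicate 1 and highest without all arrays of experiment 3. It ran from −0.0079 to 0.0444 at the low dose and from −0.0445 to 0.0079 in IFN-α, and the G2/M median from 0.0300 to 0.0833 at the intermediate dose and from −0.085 to −0.0213 in IFN-α. MKI67 changed sign with array weights at the low dose (0.0025) and in IFN-α (0.0535), and with arrays left out ran from −0.123 to 0.0619 at the low dose, −0.0364 to 0.118 at the intermediate dose and −0.085 to 0.065 in IFN-α. At the high dose PCNA ran from −0.0385 to 0.207, CDC6 from −0.0277 to 0.316 and MCM7 from −0.285 to 0.0982, and MCM7 was 0.0271 with array weights. These signs turned without the arrays of experiment 1 (PCNA, CDC6, MKI67 at the low dose), 2 (MKI67 at the intermediate dose) or 3 (MCM7), and for MKI67 in IFN-α without untreated replicate 1 or 3 or IFN-α replicate 2. With cyclic loess 16 of 17 G2/M genes were higher in high-dose AA than in untreated cells, against 49.8% of all clusters. Every gene of the cycle has 1 cluster among those with 1 symbol, so that a mean over such clusters could not be tried.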
